A study of Homo sapiens with 12 samples.

Results

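The genes described here are the translation initiation factors of the EIF1 to EIF6 series, measured in the established ovarian cancer cell line ES-2. Of the 57773 genes in the deposited table, 109 have a name that starts with EIF1 to EIF6, and 62 of these were left out. The 62 are mostly pseudogenes, with the 4 kinases of eIF2 and the 3 eIF4E-binding proteins EIF4EBP1 to EIF4EBP3 among them. The other 47 genes are the members. By complex they are 4 genes of eIF1 and eIF1A, 6 of eIF2 and eIF2-like factors, 5 of eIF2B, 14 of eIF3, 12 of eIF4F and its partners, and 6 of eIF5, eIF5A, eIF5B and eIF6. The 4 groups hold 3 libraries each: cells given siRNA to knock down IGF2BP1 (called siI1), the same for IGF2BP2 (siI2), the same for IGF2BP3 (siI3), and cells given control siRNA (siC). The labels describe the cells as parental ES-2 and give neither the siRNA sequences nor the time after transfection. The IGF2BPs are RNA-binding proteins that influence the stability, transport and translation of the mRNAs they bind. Whether replicates were grown and transfected separately is not stated, so every p-value below measures the spread between these libraries, which may be technical. In bulk RNA, fewer cells that express a gene and less of its RNA per cell cannot be told apart.

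Initiation brings the initiator tRNA and an mRNA to the small ribosomal subunit and places the start codon in its decoding site. The eIF2 trimer carries the tRNA as a complex with GTP, and eIF2B reloads eIF2 with GTP after each round, a step that phosphorylation of the eIF2 alpha subunit blocks. The eIF3 complex holds the small subunit ready for the mRNA, eIF4F binds the cap and unwinds the leader, eIF1 and eIF1A guard the choice of start codon, and eIF5 triggers GTP hydrolysis by eIF2 there. eIF5B then helps the large subunit to join, once eIF6 has come off it. In tumour cells the cap-binding factor eIF4E, its scaffold eIF4G and the helicase eIF4A are best known as the end point of growth signalling through mTOR.

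Promoter windows were available from RefSeq (GRCh38.p14) for 39 of the 47 members, as 54 windows of 300 bases that end just inside the transcript. Shown here are both windows of EIF5, the member with the smallest adjusted p against siC, and those of EIF2A, EIF3M and EIF4A2, whose FPM varied most among the members with a window and at least 10 reads in every library. Capitals mark a match to CCGGAAG, the core bound by ETS factors, or to AAGATGG, the core bound by YY1. The windows are read on the plus strand at chr14:103333987-103334286 and chr14:103334638-103334937 for EIF5, chr3:150546537-150546836 for EIF2A, chr11:32583581-32583880 for EIF3M and chr3:186783327-186783626 for EIF4A2.
EIF5 first window: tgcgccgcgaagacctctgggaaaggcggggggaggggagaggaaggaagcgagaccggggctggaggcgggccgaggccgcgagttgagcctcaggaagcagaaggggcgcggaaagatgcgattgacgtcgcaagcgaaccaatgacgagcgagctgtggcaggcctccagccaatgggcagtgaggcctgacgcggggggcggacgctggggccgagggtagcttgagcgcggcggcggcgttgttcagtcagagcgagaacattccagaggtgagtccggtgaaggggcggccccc
EIF5 second window: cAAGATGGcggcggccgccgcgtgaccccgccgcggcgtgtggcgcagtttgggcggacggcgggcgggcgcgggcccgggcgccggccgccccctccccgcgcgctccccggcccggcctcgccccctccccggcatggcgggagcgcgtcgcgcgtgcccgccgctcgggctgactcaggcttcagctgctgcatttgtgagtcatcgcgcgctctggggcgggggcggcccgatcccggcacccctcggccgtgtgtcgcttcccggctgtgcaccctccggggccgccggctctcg
EIF2A: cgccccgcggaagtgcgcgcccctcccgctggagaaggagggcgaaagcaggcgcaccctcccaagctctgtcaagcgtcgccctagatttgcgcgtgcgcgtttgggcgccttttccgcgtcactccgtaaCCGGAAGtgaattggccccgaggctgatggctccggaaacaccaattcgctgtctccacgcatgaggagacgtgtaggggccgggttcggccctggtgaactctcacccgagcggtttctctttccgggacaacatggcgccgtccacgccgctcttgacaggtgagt
EIF3M: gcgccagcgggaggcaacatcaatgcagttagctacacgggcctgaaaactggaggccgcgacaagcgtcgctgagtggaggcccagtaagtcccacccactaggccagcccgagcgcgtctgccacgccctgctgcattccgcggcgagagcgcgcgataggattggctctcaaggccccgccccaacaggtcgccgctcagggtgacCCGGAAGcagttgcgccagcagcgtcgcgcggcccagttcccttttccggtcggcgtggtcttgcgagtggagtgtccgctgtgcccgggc
EIF4A2: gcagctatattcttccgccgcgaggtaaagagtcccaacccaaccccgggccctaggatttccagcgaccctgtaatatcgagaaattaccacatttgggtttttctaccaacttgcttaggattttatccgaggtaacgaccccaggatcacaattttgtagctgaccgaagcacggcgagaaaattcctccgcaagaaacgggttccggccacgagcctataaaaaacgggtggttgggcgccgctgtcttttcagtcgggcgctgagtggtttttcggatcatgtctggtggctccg
On either strand, CCGGAAG lay in 11 of the 54 member windows (20.4%), against 10.3% of all 35116 windows in the table. AAGATGG lay in 8 member windows (14.8%), against 5.84% of all windows. These 8 windows belong to 5 of the 39 genes, and 4 of them are EIF5A windows that overlap in pairs, so the same matches are counted more than once. CACGTG, the E-box bound by MYC, lay in 10 member windows (18.5%), against 7.26% of all. The windows of EIF2A and EIF3M hold the ETS core, the second window of EIF5 holds the YY1 core, and none of the 3 motifs lies in the first window of EIF5 or in that of EIF4A2. No match of one motif overlapped a match of another in the member windows. These matches are letters in a window and were not tested for binding.

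The libraries held 3299360 to 11304060 reads. In siI3 replicate 3, with 4857951 reads, 31369 genes had a read, against 21432 to 27071 in the other libraries. Its chi-square per degree of freedom was 70.6 against siI3 replicate 1 and 84.3 against replicate 2. That value was 7.82 between siI3 replicates 1 and 2, and 78.5 between siC replicates 1 and 2. The part of siI3 replicate 3 in the siI3 results was not tested beyond leaving it out. Levels are in FPM, the depth-normalised fragment unit of the deposited table, in which 3 reads correspond to 0.32 to 0.73. Each siRNA lowered its own target: IGF2BP1 was at 25.2% of siC in siI1, IGF2BP2 at 16.8% in siI2 and IGF2BP3 at 19.2% in siI3. Of the cell type markers, VIM, CDH2, FN1, KRT8 and KRT18 were present, the epithelial markers EPCAM, KRT19 and CDH1 stayed at or below 1.1 FPM, and the ovarian carcinoma markers PAX8 and WT1 at or below 2.91 FPM, while MUC16 ranged up to 10.6 FPM, its value in siI3 replicate 3. The leukocyte markers CD3E and CD68 stayed at or below 0.242 FPM, while the endothelial marker CDH5 was at 54.8 to 149 FPM. Some markers moved with the groups: CDH5 was higher in siI1 (log2 fold change 1.21, limma adjusted p = 0.000638), siI2 (0.91, 0.0154) and siI3 (0.74, 0.0196), KRT8 (1.73, 0.000173) and KRT18 (1.0, 0.015) were higher in siI1, FN1 was lower in siI1 (-1.35, 0.000435) and siI3 (-1.19, 0.00241), and VIM was lower in siI3 (-1.52, 0.0264). Their part in the results below was not tested. One feature of the libraries touches nearly every result below. In siC replicates 1 and 3 the reads fell off with the GC content of the transcript, with slopes of -0.46 and -0.43 log2 units per 10 points of GC, whereas the slope was 0.03 in siC replicate 2 and between -0.09 and 0.21 in the 9 knockdown libraries. Fold changes are therefore given as deposited and after a correction for GC content and length in each library.

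The levels of the initiation factors spanned 4 orders of magnitude per kilobase of coding transcript. EIF5A, the hypusine-bearing factor that helps ribosomes over difficult peptide bonds, was the most abundant at 680 ± 114 FPM per kb (SD over the 12 libraries). EIF6 followed at 320 ± 69.9, the eIF3 subunit EIF3G at 299 ± 48.6, EIF3I at 197 ± 42.2 and the scaffold EIF4G1 at 146 ± 17.8. EIF6 and EIF3G differed by less than their SDs, and so did the neighbours from EIF4G1 through EIF3D (142 ± 29.9) to EIF3C (131 ± 21.9). At the other end stood the GTPase EIF5B (0.728 ± 0.555), the second eIF5A gene EIF5A2 (0.318 ± 0.0891), the cap-binding protein EIF4E (0.303 ± 0.188), the oocyte-type EIF4E1B (0.236 ± 0.232) and EIF4E3 (0.0378 ± 0.0374). The values of EIF4E, EIF4E3 and EIF3F rest on long annotated transcripts of 11523, 9949 and 7540 bases, so they may read too low. EIF4E1B and EIF4E3 had 0 to 8 reads in each library and did not pass the filter on low values, which left 45 members tested.

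**Figure D1:**
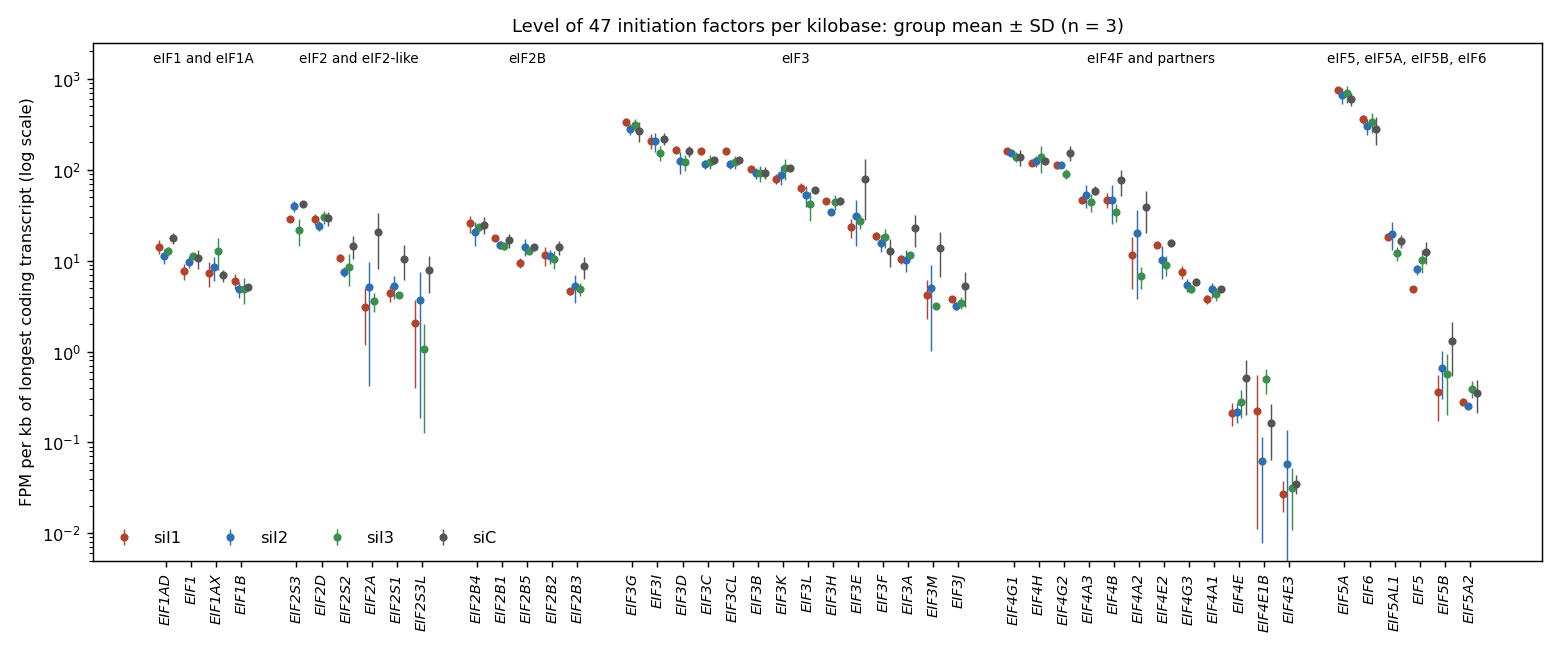
Level of the 47 initiation factors in FPM per kilobase of the longest coding transcript on a log axis, with 1 point for each group (mean, bars ± SD, n = 3) and the genes ordered by level within each complex. Lower bars that would cross 0 stop just above it. EIF5A, EIF6 and EIF3G stand highest and EIF4E3 lowest in each of the 4 groups.

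Several members share sequence or exons with other genes, and the sources used here do not say how reads that fit 2 places were counted. EIF3CL, a near-identical copy of EIF3C, had 0.970 to 0.989 of the FPM of EIF3C in every library, so the pair cannot be told apart here. Both genes are still counted separately in the counts and medians below, among the 14 eIF3 genes and the 45 tested members. EIF4A1, which encodes the main cytoplasmic eIF4A helicase, had only 5.81 to 9.55 FPM, while its processed pseudogene EIF4A1P10 on chromosome X, not a member, had 20.7 to 185 FPM. In the annotation, 41.1% of the exon bases of EIF4A1 are shared with AC016876.2 and 29.8% with the readthrough gene SENP3-EIF4A1. EIF4BP6, EIF4BP7 and EIF4BP3, pseudogenes of EIF4B, had 51.0%, 24.7% and 17.1% of its mean FPM, EIF3FP3 had 50.6% of that of EIF3F, EIF2S2P4 had 60.6% of that of EIF2S2, EIF1AXP1 had 30.1% of that of EIF1AX, and EIF4HP1 had 15.4% of that of EIF4H. The values of these members are uncertain for that reason, and so are those of the intronless copies EIF5AL1 and EIF2S3L.

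More initiation factors were lower than higher in each knockdown, and the called ones were lower. In siI1, 6 of the 45 tested members fell against siC and none rose (limma, Benjamini-Hochberg adjusted p below 0.05), where 4.42% of all 13782 genes were called lower. In siI2, 1 member fell, where 0.936% of all genes were called lower. In siI3, 9 members fell, where 8.29% of all genes were called lower. The median log2 fold change of the 45 members was -0.30 in siI1, where that of all genes tested was -0.05. It was -0.26 in siI2 (all genes -0.09) and -0.39 in siI3 (all genes -0.05). After the correction for GC content and length, 4 members were lower in siI1, against 3.22% of all genes. None was called in siI2, where 1.44% of all genes were called in either direction. At an unadjusted p below 0.05, 10 of the 45 members were past the threshold there, against 16.9% of all genes. In siI3, 4 members were lower, against 4.1% of all genes, and 1 was higher, against 2.7%. In siI1 the corrected median of the members was -0.05, in siI2 it was -0.10, and in siI3 it was -0.05. The 1 call in siI2 and the 1 rise in siI3 are single genes among 45 and say nothing of the members as a group. The 3 comparisons use the same siC libraries, so they are not independent of each other.

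**Figure D2:**
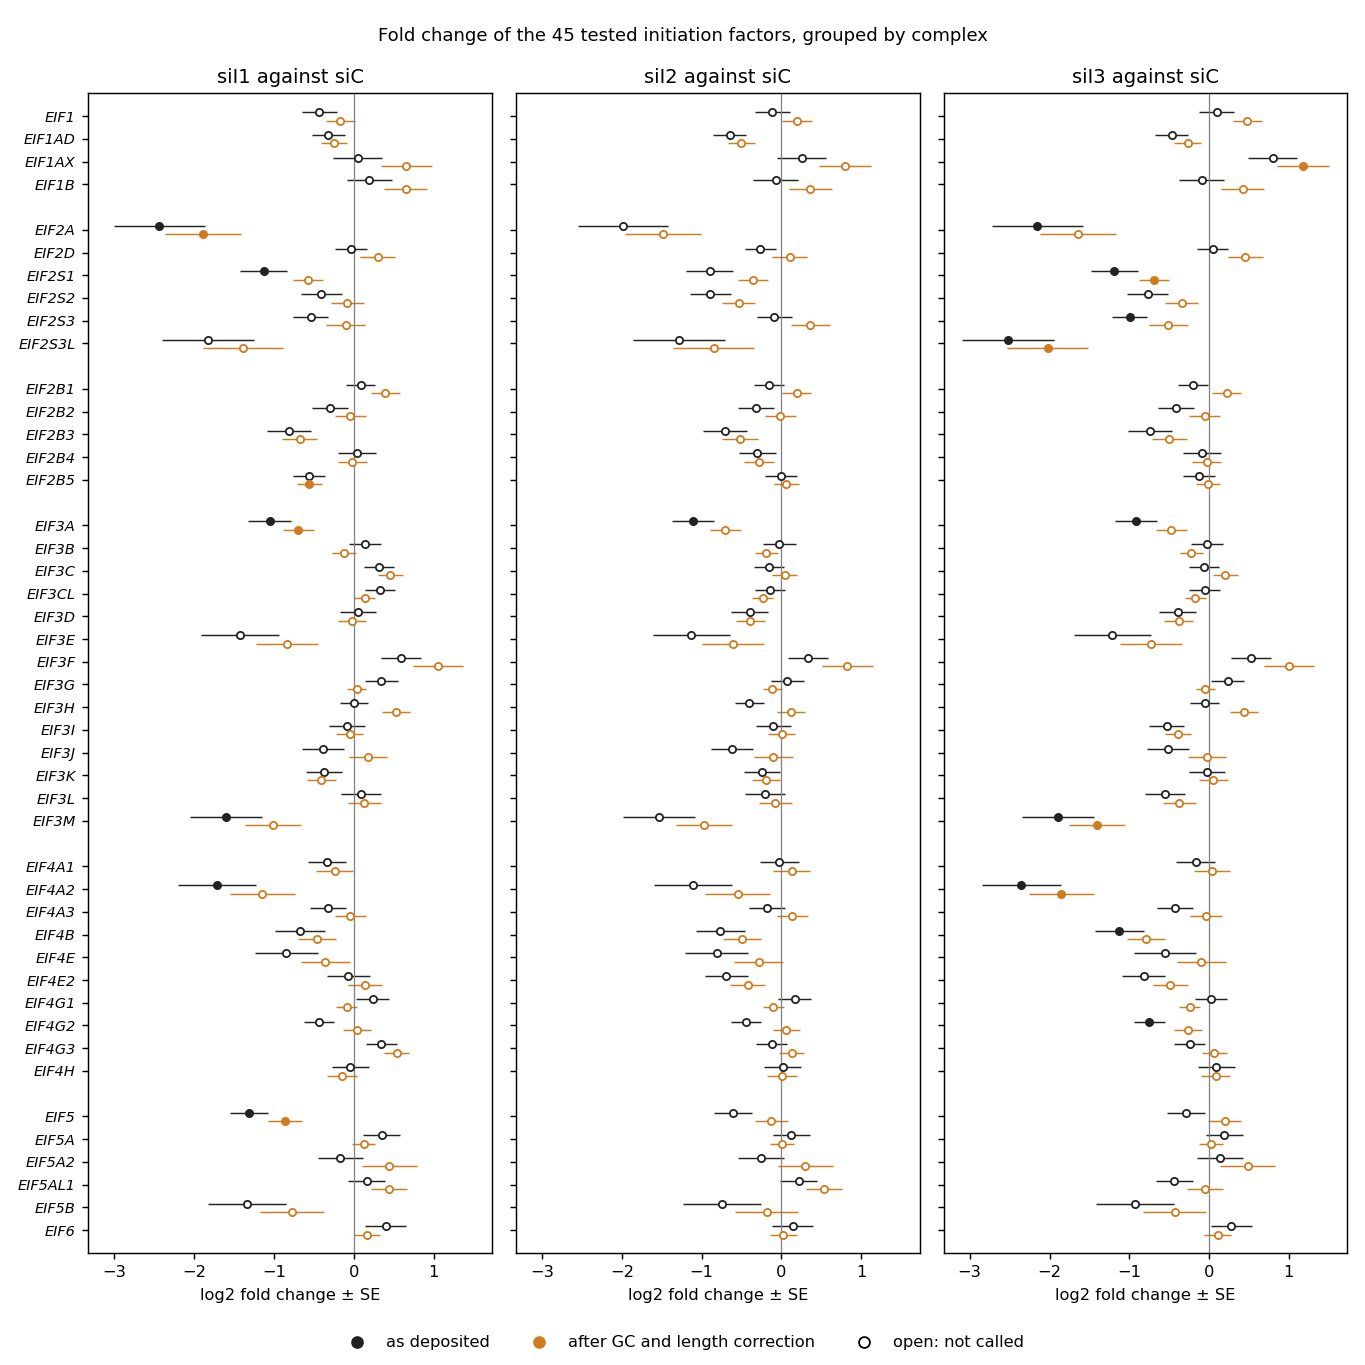
Log2 fold change (± SE) of the 45 tested members in siI1, siI2 and siI3 against siC, grouped by complex from eIF1 at the top to eIF5, eIF5A, eIF5B and eIF6 at the bottom. Black points are values as deposited, orange points are values after the correction for GC content and length, and filled points are called. The filled black points all lie below 0, and the filled orange ones do too except EIF1AX in siI3.

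The member with the smallest adjusted p against siC was EIF5, the GTPase-activating protein of eIF2 that acts when the start codon is found. EIF5 had 28.3, 26.9 and 30.8 FPM in siI1, 40.5, 51.6 and 50.7 in siI2, 64.0, 75.7 and 42.4 in siI3, and 92.3, 52.7 and 78.4 in siC. All 3 siI1 libraries lay below every one of the other 9, and the siI2 libraries lay below those of siC by a narrow margin. EIF5 thus averaged 28.6 ± 1.98 FPM in siI1 and 74.5 ± 20.1 in siC (SD, n = 3 each), 38.4% of siC, a log2 fold change of -1.31 ± 0.24 (SE, limma adjusted p = 0.00354). After the correction the log2 fold change was -0.86 (adjusted p = 0.023). With any 1 of the 12 libraries left out the adjusted p of the deposited values stayed between 0.001 and 0.034. The corrected call ended when siC replicate 1 or 3, or any one of the siI1 libraries, was left out. In siI2 the log2 fold change was -0.61 (adjusted p = 0.156), and in siI3 it was -0.29 (0.418). The authors' deposited table gives EIF5 an FDR of 0.00202 in siI1, the only member below 0.05 there, and no member is below 0.05 in it for siI2 or siI3.

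EIF5 was also lower in siI1 than in siI3, a direct comparison whose group means use no siC library. The log2 difference was -1.02 ± 0.24 (limma adjusted p = 0.0144), and EIF5 was the only member called lower, where 2.47% of all genes were. After the correction it was -1.06 (adjusted p = 0.00386), together with EIF2B5 and EIF1, 3 members in all against 5.25% of all genes. The deposited call was lost without siI1 replicate 1 or 2 or siI3 replicate 1 or 2, while the corrected one was kept in all 12 fits with 1 library left out. Against siI2 the log2 difference of EIF5 was -0.71 (adjusted p = 0.151), and -0.74 (0.0595) after the correction.

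No other gene of these last steps was called in any comparison. EIF5A had 1239, 1075 and 1144 FPM in siI1, 1218, 848 and 920 in siI2, 1162, 1186 and 793 in siI3, and 849, 1088 and 798 in siC. Its groups overlapped in every comparison with siC, with a log2 fold change of 0.35 in siI1 (adjusted p = 0.336). EIF6, which keeps the large subunit apart, had a log2 fold change of 0.40 in siI1 (adjusted p = 0.314) and 0.28 in siI3 (0.473). EIF5AL1 had its highest log2 fold change, 0.21 (adjusted p = 0.605), in siI2. EIF5A2, with 6 to 26 reads in a library, was at 1.29 to 2.80 FPM. EIF5B had 1.4, 3.36 and 1.54 FPM in siI1 and 10.1, 2.37 and 10.4 in siC, and its log2 fold change of -1.34 was not called (adjusted p = 0.0924). Here siC replicate 2 lay among the siI1 libraries.

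Among the carriers of the initiator tRNA, 2 of 6 genes of the eIF2 group fell in siI1 and 4 of 6 fell in siI3, and the median log2 fold change over the 6 was -0.83 in siI1, -0.90 in siI2 and -1.09 in siI3. Of all genes, 4.42% were called lower in siI1 and 8.29% in siI3. After the correction the medians were -0.33, -0.44 and -0.60 in the same order, and 1 of the 6 was called lower in siI1 and 2 in siI3, against 3.22% and 4.1% of all genes. EIF2A, which encodes an alternative carrier of initiator tRNA outside the trimer, had 3.57, 11.7 and 5.30 FPM in siI1, 6.17, 23.0 and 4.36 in siI2, 5.89, 9.65 and 7.97 in siI3, and 64.0, 13.7 and 59.4 in siC. The siI1 and siI3 libraries lay below all of siC, but siC replicate 2 was close to them. EIF2A fell to 15.0% of siC in siI1 (log2 fold change -2.44 ± 0.57, limma adjusted p = 0.0172) and to 17.2% in siI3 (-2.15, 0.0287). In siI2 it stood at -1.99 (adjusted p = 0.0788). After the correction the siI1 value was -1.89 (adjusted p = 0.0267) and the siI3 value -1.65 (0.0508).

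EIF2S1 encodes the alpha subunit, the one that stress kinases phosphorylate. It had 16.3, 24.0 and 18.8 FPM in siI1, 16.8, 30.3 and 23.8 in siI2, 18.9, 18.9 and 18.1 in siI3, and 63.2, 25.5 and 51.7 in siC. It fell to 42.1% of siC in siI1 (log2 fold change -1.13 ± 0.29, limma adjusted p = 0.0289) and to 39.9% in siI3 (-1.19, 0.0238). After the correction the siI1 value was -0.57 (adjusted p = 0.0837) and the siI3 value -0.69 (0.0405). The siI1 and siI3 libraries lay below all of siC, with siC replicate 2 the nearest, and siI2 replicate 2 lay above siC replicate 2.

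EIF2S3 encodes the gamma subunit, which binds GTP and the tRNA. EIF2S3 had 81.4, 78.7 and 85.6 FPM in siI1, 108, 100 and 131 in siI2, 78.7, 67.2 and 39.5 in siI3, and 128, 117 and 113 in siC. The 3 siC libraries were close together here, and all siI1 and siI3 libraries lay below them. It fell to 51.7% of siC in siI3 (log2 fold change -1.0 ± 0.22, limma adjusted p = 0.0167), and after the correction it stood at -0.51 (0.2), which is not a call. EIF2S3 was also the only member called between siI2 and siI3, at 182% of the siI3 mean in siI2 (log2 difference 0.90 ± 0.22, adjusted p = 0.0445), where 1.26% of all genes were called higher. That call was kept in 2 of the 12 fits with 1 library left out and ended after the correction (adjusted p = 0.0607), where no member was called, against 3.96% of all genes. At an unadjusted p below 0.05, 5 members were past the threshold after the correction, against 18.8% of all genes.

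EIF2S3L, an intronless copy of EIF2S3, had 2.48, 8.48 and 2.22 FPM in siI1, 4.68, 17.1 and 2.18 in siI2, 0.982, 1.27 and 4.61 in siI3, and 24.8, 10.1 and 15.6 in siC. It fell to 13.6% of siC in siI3 (log2 fold change -2.52 ± 0.58, limma adjusted p = 0.0186, corrected -2.02 and 0.0285). It stood at -1.83 in siI1 (adjusted p = 0.0595) and at -1.29 in siI2 (0.2). The beta subunit gene EIF2S2 had 25.3, 28.5 and 30.9 FPM in siI1, 21.7, 21.1 and 17.0 in siI2, 18.5, 16.6 and 32.8 in siI3, and 50.3, 29.4 and 36.0 in siC. It was not called, with a log2 fold change of -0.89 in siI2 (adjusted p = 0.082). EIF2D, a further tRNA-delivering factor, ranged from 41.2 to 70.7 FPM over the 12 libraries with overlapping groups.

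None of the 5 subunits of eIF2B, the exchange factor of eIF2, was called against siC in the deposited values, with adjusted p-values of 0.075 to 0.931 in siI1. The catalytic subunit gene EIF2B5 had 25.8, 28.0 and 22.1 FPM in siI1, 41.3, 44.3 and 28.4 in siI2, 34.9, 34.7 and 33.0 in siI3, and 41.2, 36.3 and 35.2 in siC. The 3 siI1 libraries were the lowest of the 12. The log2 fold change of EIF2B5 in siI1 was -0.56 against siC (limma adjusted p = 0.0882) and -0.55 against siI2 (0.192). After the correction the value against siC was -0.56 (adjusted p = 0.0401), that against siI2 was -0.62 (0.03) and that against siI3 was -0.54 (0.0312). The corrected calls were kept in 3, 7 and 7 of the 12 fits with 1 library left out. Between siI1 and siI2 EIF2B5 was the only member called after the correction, against 2.1% of all genes. No member was called in the deposited values of that comparison, against 2.4% of all genes, and 7 members had an unadjusted p below 0.05, against 14.3%. DESeq2 called 1 member there and edgeR none, and the share of all genes called in these fits is not given here.

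Of the 4 genes of eIF1 and eIF1A, which guard start codon choice, none was called against siC as deposited, and the median log2 fold change was -0.13 in siI1, -0.09 in siI2 and 0.00 in siI3. With the correction the medians were 0.24 in siI1, 0.28 in siI2 and 0.45 in siI3. EIF1AX, the X-linked eIF1A gene, had 32.9, 22.2 and 42.4 FPM in siI1, 36.4, 27.0 and 48.7 in siI2, 61.0, 76.3 and 32.8 in siI3, and 32.6, 34.0 and 25.3 in siC. Replicates 1 and 2 of siI3 were the highest of the 12 libraries and replicate 3 lay among the siC values. Its log2 fold change in siI3 was 0.80 ± 0.30 (limma adjusted p = 0.0961), and 1.18 (0.0424) after the correction, which was kept in 5 of the 12 fits with 1 library left out. EIF1 had 15.1, 21.9 and 16.8 FPM in siI1, 18.7, 25.4 and 23.5 in siI2, 26.2, 27.4 and 24.5 in siI3, and 31.3, 20.4 and 22.3 in siC. Against siI3, EIF1 in siI1 was not called as deposited (log2 difference -0.53, adjusted p = 0.177) and was lower after the correction (-0.65, 0.0333). Its paralog EIF1B was at 3.18 to 6.99 FPM, and EIF1AD, an eIF1A-like gene, at 25.5 to 57.5 FPM.

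The 14 eIF3 genes did not move as a block. Their median log2 fold change was 0.03 in siI1, -0.22 in siI2 and -0.23 in siI3, and 2 fell in siI1, 1 in siI2 and 2 in siI3. Of all genes, 4.42%, 0.936% and 8.29% were called lower in the same order. After the correction the medians were 0.01, -0.15 and -0.20. Then 1 eIF3 gene was called lower in siI1 and 1 in siI3, against 3.22% and 4.1% of all genes, and none in siI2. EIF3A, the large scaffold subunit, had 60.3, 77.1 and 69.6 FPM in siI1, 49.0, 86.0 and 68.6 in siI2, 84.1, 73.6 and 70.5 in siI3, and 203, 89.6 and 163 in siC. It was the only member called in all 3 knockdowns, at 45.4% of siC in siI1 (log2 fold change -1.05 ± 0.26, limma adjusted p = 0.0252), 44.7% in siI2 (-1.11, 0.0482) and 50.1% in siI3 (-0.91, 0.0398). After the correction it stood at -0.70 in siI1 (adjusted p = 0.0413), -0.70 in siI2 (0.0987) and -0.47 in siI3 (0.138). All knockdown libraries lay below all of siC, with siC replicate 2 the nearest to them.

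EIF3M, one of the subunits with a PCI domain, had 13.8, 32.0 and 17.4 FPM in siI1, 13, 48 and 14.1 in siI2, 15.2, 15.9 and 17.0 in siI3, and 104, 31.9 and 71.9 in siC. In siI1 and siI2 replicate 2 reached or passed siC replicate 2, so those groups overlap siC, while siI3 does not. EIF3M fell to 30.4% of siC in siI1 (log2 fold change -1.60 ± 0.45, limma adjusted p = 0.0394) and to 23.1% in siI3 (-1.89, 0.0217). It stood at -1.54 in siI2 (adjusted p = 0.0862). After the correction the siI1 value was -1.02 (adjusted p = 0.0956) and the siI3 value -1.41 (0.0278).

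The subunit gene EIF3E showed the same split of the controls without a call. EIF3E had 26.4, 41.3 and 40.7 FPM in siI1, 31.7, 76.3 and 34.4 in siI2, 35.9, 49.5 and 39.3 in siI3, and 159, 31.3 and 180 in siC, so siC replicate 2 was lower than 8 of the 9 knockdown libraries. Its log2 fold changes were -1.43 in siI1 (limma adjusted p = 0.0751), -1.13 in siI2 (0.184) and -1.21 in siI3 (0.109). EIF3F had the largest rise of any member in siI1 and siI2, none of it called. It had 152, 126 and 147 FPM in siI1, 147, 113 and 97.2 in siI2, 142, 167 and 102 in siI3, and 95.2, 130 and 65.4 in siC. The log2 fold change was 0.59 in siI1 (adjusted p = 0.138), 0.33 in siI2 (0.445) and 0.52 in siI3 (0.173). Summed with its pseudogene EIF3FP3, EIF3F averaged 211 ± 14.2 FPM in siI1 and 174 ± 32.9 in siC (SD, n = 3). The sum was 180 ± 43.1 in siI2 and 180 ± 21.5 in siI3. EIF3C had 504, 546 and 451 FPM in siI1 and 370, 435 and 398 in siC, with no overlap but no call (0.32, 0.284). The other 9 eIF3 genes were not called against siC in any knockdown, among them EIF3B, EIF3D, EIF3G, EIF3H, EIF3I, EIF3K and EIF3L, which had at least 88.0 FPM in every library.

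In the cap-binding and helicase group, 3 of the 10 tested genes fell in siI3, 1 in siI1 and none in siI2. Of all genes, 8.29%, 4.42% and 0.936% were called lower in the same order. After the correction 1 of the 10 was called lower in siI3, against 4.1% of all genes, and none in siI1 or siI2. EIF4A2, the second cytoplasmic eIF4A helicase, had 15.1, 36.6 and 14.5 FPM in siI1, 26.4, 73.9 and 15.0 in siI2, 9.68, 12.2 and 16.7 in siI3, and 106, 35.3 and 84.3 in siC. The siI3 libraries lay below all of siC, while siI1 replicate 2 and siI2 replicate 2 lay above siC replicate 2. EIF4A2 fell to 17.1% of siC in siI3 (log2 fold change -2.35 ± 0.49, limma adjusted p = 0.0132, corrected -1.86 and 0.0169) and to 29.4% in siI1 (-1.71, 0.0426, corrected -1.14 and 0.107). In siI2 it stood at -1.11 (adjusted p = 0.196). EIF4A1 was not called (log2 fold change -0.17 in siI3, adjusted p = 0.66). Its abundant pseudogene EIF4A1P10 had 35.4, 20.7 and 77.1 FPM in siI3, against 185, 143 and 129 in siC. EIF4A1P10 fell to 29.2% of siC in siI3 (log2 fold change -1.94 ± 0.40, adjusted p = 0.0131, corrected -1.66 and 0.0138). It was also higher in siI1 than in siI3 (log2 difference 1.45, adjusted p = 0.0375). The call against siC was not kept without siC replicate 1 or 3 or siI3 replicate 1 or 2, and that against siI3 without any 1 siI1 library or siI3 replicate 1 or 2. Reads of EIF4A1 and of EIF4A1P10 cannot be told apart here. Their sum came to 42.0, 29.6 and 84.2 FPM in siI3, and 194, 152 and 136 in siC. EIF4A3, the helicase of the exon junction complex, was at 57.6 to 115 FPM and was not called.

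EIF4B, the RNA-binding stimulator of eIF4A, had 153, 224 and 201 FPM in siI1, 184, 282 and 109 in siI2, 130, 117 and 177 in siI3, and 411, 209 and 327 in siC. It fell to 44.7% of siC in siI3 (log2 fold change -1.12 ± 0.31, limma adjusted p = 0.0328), and stood at -0.79 (0.0572) after the correction. Summed with its 3 pseudogenes, EIF4B came to 280, 235 and 347 FPM in siI3 and 713, 412 and 588 FPM in siC. The scaffolds differed among themselves. EIF4G2, which lacks the eIF4E-binding part and serves initiation without the cap-binding protein, had 427, 497 and 422 FPM in siI1, 461, 461 and 415 in siI2, 319, 356 and 411 in siI3, and 520, 576 and 743 in siC. It fell to 59.0% of siC in siI3 (log2 fold change -0.75 ± 0.19, adjusted p = 0.0265), and stood at -0.26 (0.355) after the correction.

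EIF4G1, the main scaffold, had 892, 962 and 850 FPM in siI1, 917, 834 and 818 in siI2, 835, 839 and 671 in siI3, and 675, 952 and 692 in siC, with overlapping groups. EIF4G3 had 46.7, 54.7 and 39.0 FPM in siI1 and 40.0, 34.0 and 35.1 in siC (log2 fold change 0.35, limma adjusted p = 0.258, corrected 0.54 and 0.0506). With GC content and length taken from the longest coding transcript the last p was 0.0419. EIF4E, the cap-binding protein, had 2.17, 3.20 and 1.88 FPM in siI1 and 6.73, 1.94 and 8.80 in siC, and was not called (-0.85, adjusted p = 0.174). Its relative EIF4E2 was at 54.8, 56.5 and 47.7 FPM in siI1, 47.1, 41.5 and 20.1 in siI2, 32.3, 23.5 and 39.3 in siI3, and 50.7, 56.3 and 60.1 in siC. The siI3 libraries of EIF4E2 lay below all of siC without a call (-0.82, adjusted p = 0.0608). EIF4H, the smaller partner of eIF4A, ranged from 228 to 454 FPM.

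**Figure D3:**
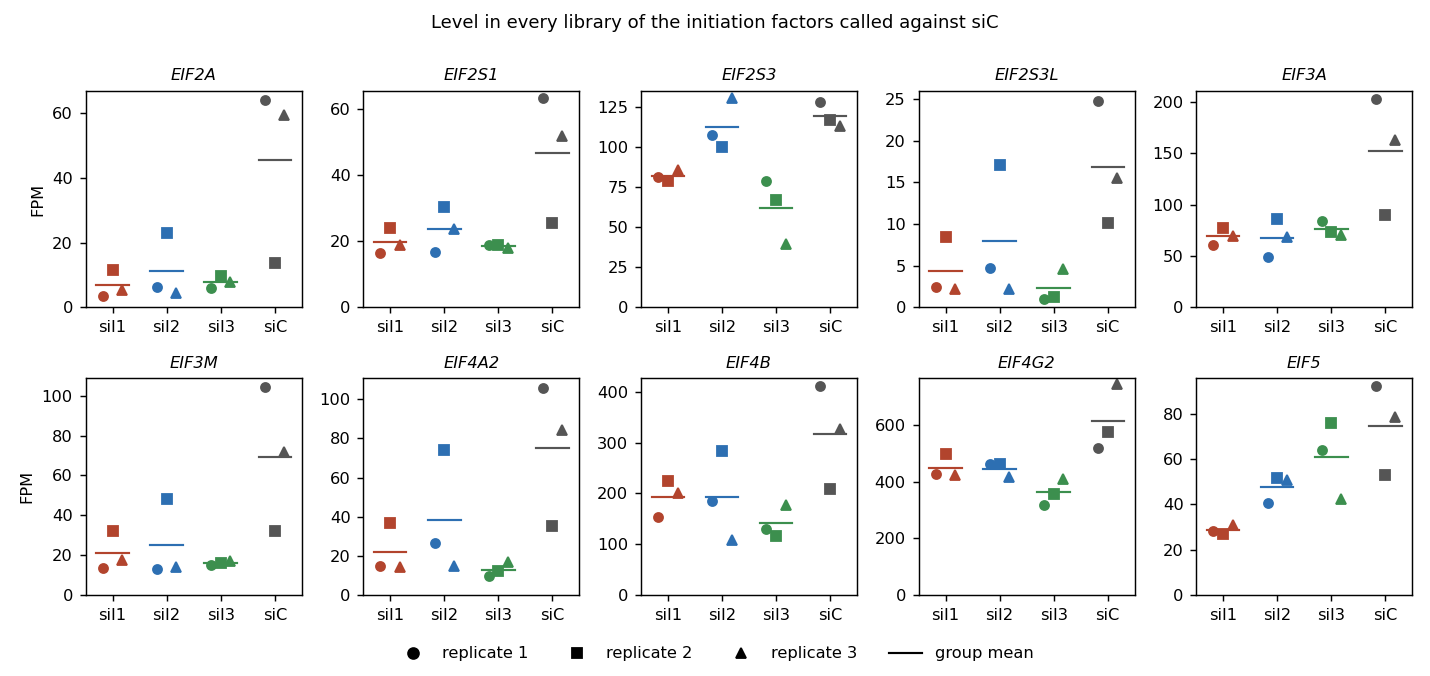
FPM in every library of the 10 members called against siC in at least 1 knockdown, on linear axes from 0, with replicates as symbols and group means as lines. In most panels siC replicates 1 and 3 lie high and siC replicate 2 (square) lies close to the knockdowns, while EIF2S3 and EIF4G2 have siC libraries that stay together above siI3.

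Without siC replicate 1, or without siC replicate 3, none of the 9 calls in siI3 or the 1 call in siI2 remained, and EIF5 alone was called in siI1. EIF5 was also the only call in siI1 without siI1 replicate 1 or 3. In siI3, EIF2S3 was the only call without siI3 replicate 1 or 2. Some calls had further libraries they rested on. In siI1, EIF3M was not called without siI3 replicate 1, nor EIF4A2 without siI2 replicate 1 or siI3 replicate 1 or 2. In siI3, EIF3A was not called without siI1 replicate 1 or 3. The call of EIF3A in siI2 held in 3 of the 12 fits, those without siC replicate 2, siI2 replicate 2 or siI3 replicate 3. The highest adjusted p among the fits with 1 library left out lay between 0.115 and 0.218 for the 5 calls other than EIF5 in siI1, and between 0.09 and 0.207 for the 9 calls in siI3. Without siC replicate 2, 12 members were called lower and EIF3F higher in siI1, 9 were called lower in siI2, and 14 were called lower and EIF3F higher in siI3. Genes called then and not with all libraries include EIF3E, EIF4E and EIF2S2 in siI2 and EIF5B and EIF2B3 in siI1. Fits without siC replicate 2 keep siC replicates 1 and 3, the siC libraries with the GC trend. The share of all genes called in these fits is not given here, so their counts say nothing of the members as a group.

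The called members, except EIF4B, lay below the median GC content of the tested members. The most AU-rich tested members, EIF5A2 (34.3%) and EIF1AX (35.1%), were not called against siC as deposited. The 10 members called against siC had a transcript GC content of 38.0 to 46.4% (median 41.1), within 34.3 to 60.3% (median 45.8) over the 45 tested members. In 8 of the 10, siC replicate 2 was below both other siC libraries, against 16 of the 45. Across the 45 members, as a description of genes that share the same libraries, the log2 fold change rose with GC content, with a Spearman rho of 0.56 in siI1, 0.51 in siI2 and 0.44 in siI3. After the correction rho was 0.11, 0.01 and 0.09. The correction takes out the GC trend of each library across all genes, so a small rho follows from it and tests nothing. The log2 ratio of siC replicates 1 and 3 over siC replicate 2 had a rho of -0.56 with GC content. The part of the GC trend of siC replicates 1 and 3 in the fall of any single gene was not tested beyond the corrected values.

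**Figure D4:**
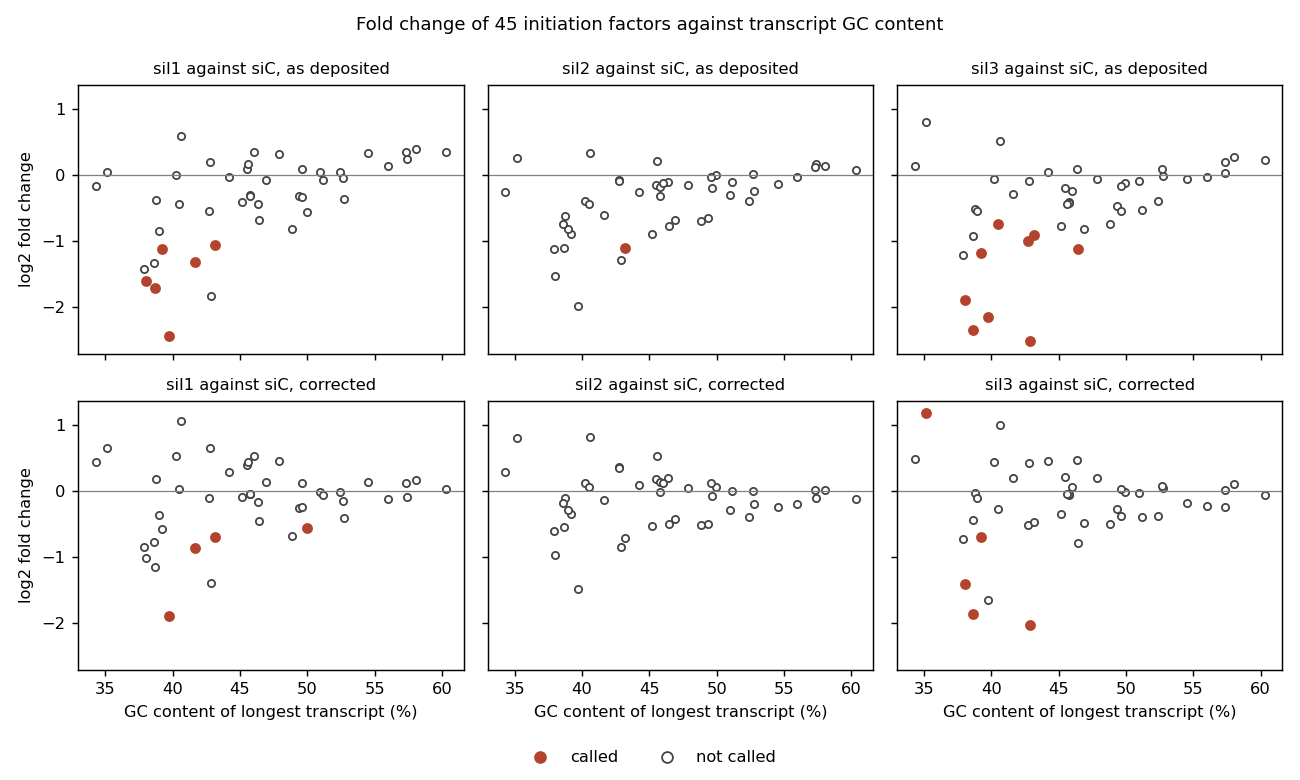
Log2 fold change of the 45 tested members against the GC content of the longest transcript, for siI1, siI2 and siI3 against siC, as deposited (upper row) and after the correction for GC content and length (lower row). Red points are called. In the upper row the low points lie at the AU-rich end, and in the lower row the trend across members is nearly flat. The correction takes out the GC trend across all genes, so the flat lower row follows from it.

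The other genes of the pathway were taken as 8 lists. Of 7 other initiation and recycling factors, 3 fell after the knockdown of IGF2BP1, none did in siI2, and 1 did in siI3, against 4.42%, 0.936% and 8.29% of all genes called lower. After the correction BZW2 alone remained lower in siI1 and none in siI3, and the helicase gene DHX29 was lower in siI2 than in siI3 (log2 difference -1.05, limma adjusted p = 0.0468). The eIF5-mimic gene BZW2, whose product resembles the eIF2-binding end of eIF5, had 13.8, 15.7 and 13.8 FPM in siI1, 52.8, 57.3 and 26.7 in siI2, 38.4, 31.8 and 43.8 in siI3, and 76.5, 55.2 and 45.9 in siC. The 3 siI1 libraries lay below all of the other 9. BZW2 fell in siI1 against siC (log2 fold change -1.93 ± 0.27, limma adjusted p = 0.000491, corrected -1.34 and 0.00272), against siI2 (-1.52, 0.00493) and against siI3 (-1.33, 0.00511), and each of these calls was kept in all 12 fits with 1 library left out. The second mimic gene BZW1 had 11.3, 10.6 and 8.21 FPM in siI1, 17.7, 17.6 and 8.73 in siI2, 14.3, 13.5 and 12.2 in siI3, and 35.1, 18.3 and 24.1 in siC. BZW1 fell too in siI1 (-1.25, adjusted p = 0.0158), with -0.72 (0.102) after the correction. Its siI2 and siI3 libraries also lay below all of siC without a call. The helicase gene DDX3X fell in siI1 (-1.05, 0.0321) and siI3 (-1.02, 0.0326), and neither call held after the correction (0.0787 and 0.0715). BZW1 was not called without siC replicate 1 or 3 or siI1 replicate 3, and DDX3X not without siC replicate 1 or 3 or replicates 1 or 3 of siI1 (in siI1) and 1 or 2 of siI3 (in siI3).

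Of the 6 genes for eIF2 kinases and phosphatase subunits, none was called in any comparison as deposited, with adjusted p-values of 0.155 to 0.873 in siI1. After the correction PPP1R15A, which brings a phosphatase to eIF2, was lower in siI1 than in siI3 (log2 difference -0.74, limma adjusted p = 0.00468) and lower in siI2 than in siI3 (-0.72, 0.0125). Of 8 genes around ATF4, the factor whose own translation rises when eIF2 is phosphorylated, 2 fell and 1 rose in siI1 as deposited, against 4.42% of all genes called lower and 3.77% called higher, and none was called in siI2 or siI3. After the correction 4 fell and 1 rose in siI1, against 3.22% and 3.79%, the further falls being ATF4 and SESN2 (-1.12, limma adjusted p = 0.00318). ATF3, a stress-induced transcription factor gene, was higher in siI3 after the correction (1.26, 0.0253). ATF4 itself had 169, 160 and 177 FPM in siI1 and 203, 258 and 217 in siC (log2 fold change -0.41, limma adjusted p = 0.175, corrected -0.64 and 0.033). The asparagine synthetase gene ASNS had 3.26, 9.59 and 4.79 FPM in siI1, 9.79, 15.8 and 7.52 in siI2, 8.42, 10.9 and 16.7 in siI3, and 27.4, 22.4 and 17.7 in siC. ASNS fell in siI1 (-1.86 ± 0.35, adjusted p = 0.00452), and its siI2 and siI3 libraries also lay below all of siC without a call. CHAC1, which degrades glutathione, had 3.73, 2.72 and 2.91 FPM in siI1, 8.94, 11 and 4.85 in siI2, 8.84, 13.2 and 7.09 in siI3, and 7.42, 11.3 and 7.72 in siC. CHAC1 fell in siI1 against siC (-1.24 ± 0.31, adjusted p = 0.0252, corrected -1.60 and 0.00216) and against siI3 (-1.35, 0.0135). The mTORC1 inhibitor gene SESN2 was lower in siI1 than in siI3 (-1.24, 0.00781). DDIT4, another inhibitor of mTORC1, had 19.9, 14.1 and 11.3 FPM in siI1, 13.2, 9.19 and 5.82 in siI2, 14.0, 10.7 and 5.14 in siI3, and 4.87, 5.82 and 5.28 in siC. DDIT4 rose in siI1 (1.31 ± 0.34, adjusted p = 0.0289). In siI2 and siI3 it was not called, with replicates 1 and 2 above siC and replicate 3 among the siC values. ASNS was called in all 12 fits with 1 library left out, whereas CHAC1 and DDIT4 were not called against siC without siC replicate 1 or 3 or any 1 siI1 library. Against siI3, CHAC1 was not called without siI1 replicate 2 or 3 or siI3 replicate 2, nor SESN2 without siI3 replicate 2.

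**Figure D5:**
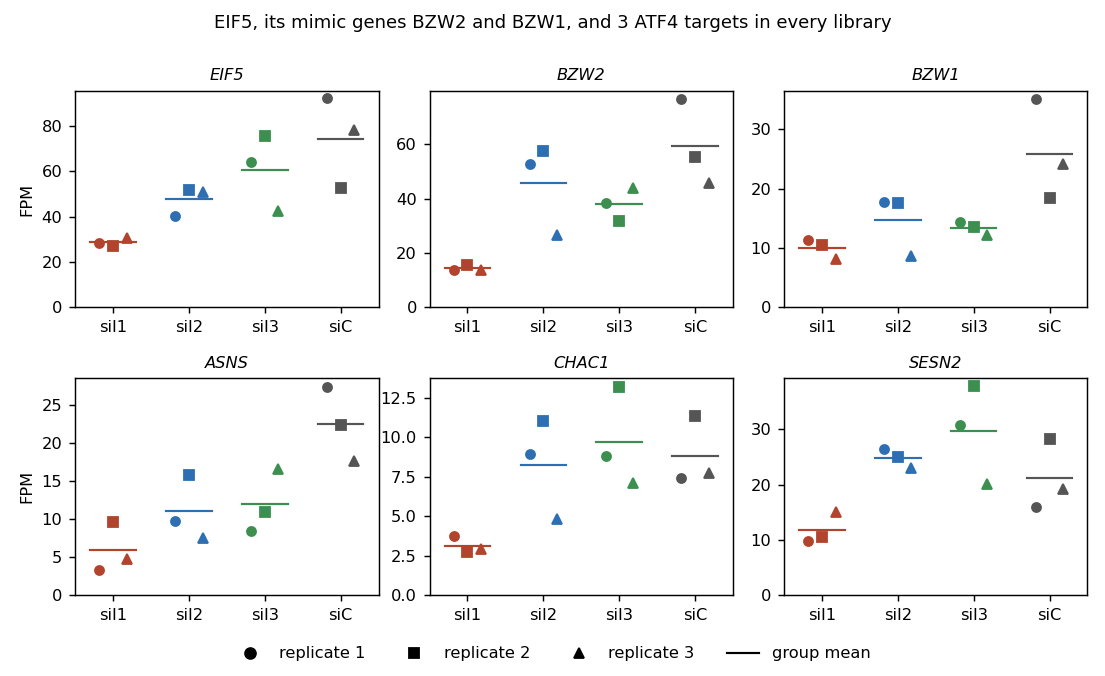
FPM in every library of EIF5, the mimic genes BZW2 and BZW1, and the ATF4 target genes ASNS, CHAC1 and SESN2, with replicates as symbols and group means as lines. For EIF5, BZW2, CHAC1 and SESN2 the 3 siI1 libraries lie below all other libraries.

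Of 11 tested inhibitors and regulators of eIF4E, EIF4EBP2 was the only one called in the deposited values. It was called lower in siI2 and siI3, where 0.936% and 8.29% of all genes were, and as a single gene says nothing of the list. EIF4EBP2, which encodes a protein that holds eIF4E away from eIF4G, had 48.1, 69.6 and 45.3 FPM in siI1, 26.8, 48.1 and 26.7 in siI2, 32.7, 39.6 and 48.0 in siI3, and 78.4, 61.5 and 83.8 in siC. It fell in siI2 (log2 fold change -1.16 ± 0.25, limma adjusted p = 0.031, corrected -0.79 and 0.0349) and in siI3 (-0.88, 0.0368, corrected -0.47 and 0.104). After the correction 3 genes of the list were higher in siI1 than in siI2, where 2.79% of all genes were: EIF4EBP2 (0.64, 0.0439), the eIF4E kinase gene MKNK2 (0.65, 0.0292) and the mTORC1 subunit gene RPTOR (0.48, 0.0446). MKNK2 was also higher in siI1 than in siI3 after the correction (0.69, 0.0102), where 6.44% of all genes were. EIF4EBP1 was lower in siI2 than in siI3 (-0.62, 0.0164), where 1.64% of all genes were. Of 3 release factor genes, ETF1 fell in siI1 (-0.83, 0.0311) and siI3 (-0.75, 0.0403), where 4.42% and 8.29% of all genes were called lower. Neither call of ETF1 held after the correction. The calls of EIF4EBP2 and ETF1 all ended without siC replicate 1 or 3, and without siI1 replicate 1 or 3. They also ended without siI2 replicate 1 or 3 for EIF4EBP2 in siI2, and without siI3 replicate 1 or 2 for both genes in siI3. None of the 5 tested elongation factors, the 5 poly(A)-binding protein genes or the 2 hypusine enzymes of eIF5A was called in any of the 6 comparisons. Of all genes, 4.42%, 0.936% and 8.29% were called lower in siI1, siI2 and siI3. Lists this short without a call say nothing beyond their own genes.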

How the data were processed

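Total RNA depleted of ribosomal RNA was sequenced from 12 libraries, per the labels' protocols. Per the submitters' processing notes, cutadapt 1.6, TopHat2 2.0.13, featureCounts 1.4.6, edgeR 3.12 and the hg19 build were used. The sources used here give neither the strand setting nor the handling of overlapping genes. The deposited signal values are FPM, per the file headers, scaled by the authors, and whole reads could be recovered from 100% of them (tolerance 0.01), in 3299360 to 11304060 reads per library. The authors also deposited log2 fold changes and FDR-adjusted p-values, per the file headers.

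Genes were filtered with filterByExpr (minimum count 10), and log2(FPM + 1) was fitted with limma 3.58.1 (trend, R 4.3.3) over the 12 libraries and 4 groups. This gave 13782 genes, with Benjamini-Hochberg adjustment over all of them in each of 6 comparisons and calls at 0.05. Fold changes are on that scale and understate changes of low genes. The script was tested on simulated data. In the correction, each library's values were adjusted by loess (span 0.5) for GC content and length of the longest transcript, known for 96.9% of the genes. Alternatives were other pseudocounts, TMM scaling, no filter, a replicate block, 6 libraries only, each library left out, edgeR 4.0.16 and DESeq2 1.42.0 on recovered reads. Figures were drawn with matplotlib 3.10.9 in Python 3.11.15. Counting intervals were not computed, and the 3-read floor covers counting error only.

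Same-numbered siI1 and siI2 libraries deviated together from their group means (correlation 0.18 to 0.45 in the 3 pairs), a possible pairing read from the data and not from the labels. Unlike-numbered siI1 and siI2 libraries ran from -0.32 to 0.15. In other groups some unlike-numbered libraries reached similar values, such as 0.43 for siI1 replicate 2 with siI3 replicate 3. The members and gene lists were chosen with earlier results of these data known, and the pseudogenes after their values were seen. Statistics are given for members called in any comparison, for the 3 largest rises and falls per knockdown, and for paralog sets. EIF1AY and pseudogenes were left out.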

Additional observations from a re-analysis of the deposited data

Results flagged for a closer look

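EIF5 and EIF2S3 differed between knockdowns when these were compared directly. EIF5 was lower in siI1 than in siI3, by a log2 difference of -1.02 (limma adjusted p = 0.0144), with all 3 siI1 libraries below all 3 of siI3. The call ended in 4 of the 12 fits with 1 library left out (adjusted p up to 0.088) and in no other alternative. EIF2S3 was higher in siI2 than in siI3, by a log2 difference of 0.9048 (limma adjusted p = 0.0445), with all 3 siI2 libraries above all 3 of siI3. This call ended in 10 of the 12 fits with 1 library left out, without the filter on low values (adjusted p = 0.141), with the replicate block (0.0778), with the 6 libraries alone (0.198) and after the correction (0.0607).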

How the results depend on the processing

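No member call reversed its direction under any alternative run. With all libraries, the calls against siC were 6 members for siI1, 1 for siI2 and 9 for siI3. Without the filter on low values there were 2, 0 and 4. The fit with the replicate block called 2, 0 and 6, and the block with the GC and length correction 3, 0 and 3. The correction alone called 4, 0 and 5. In siI1 the count was higher with the 6 libraries alone (9), DESeq2 (9), edgeR (7) and a pseudocount of 4 (7). In siI2 a pseudocount of 0.25, TMM scaling, the 6 libraries alone, the correction on the longest coding transcript and edgeR each called 0, and DESeq2 called 2. Between siI1 and siI2, 0 were called, and 1 with the correction, with the correction and block, with the coding transcript or with DESeq2. Between siI1 and siI3, 1 was called, and 3, 2 and 3 under the 3 forms of the correction. Between siI2 and siI3, 1 was called, 2 with DESeq2, and 0 without the filter, with the block, with 6 libraries or under the 3 forms of the correction. Leaving out 1 library gave 1 to 13 calls in siI1, 0 to 9 in siI2, 0 to 15 in siI3, 0 between siI1 and siI2, 0 to 3 between siI1 and siI3 and 0 to 1 between siI2 and siI3. With the correction, which was combined with leaving out 1 library after seeing the data, the ranges were 0 to 8, 0 to 4, 0 to 12, 0 to 3, 1 to 8 and 0 to 1. The coding transcript form was also added after seeing the data. The cause of these shifts was not tested. Shares of all genes called are given in this report only for the deposited values and the correction with all libraries. The counts of the other fits therefore say nothing of the members as a group. Same-numbered libraries correlated at -0.34 to -0.09 between siC and siI1, -0.45 to -0.01 between siC and siI2, 0.01 to 0.27 between siC and siI3, -0.33 to 0.18 between siI1 and siI3 and -0.30 to 0.16 between siI2 and siI3. Unlike-numbered libraries of siC and siI3 ran from -0.24 to 0.16. Deviations from means of 3 libraries cannot settle whether the numbers pair any of the groups. Between siI1 and siI2 the block changed no call. As it was fitted over all 12 libraries, it is no test of a pairing of siI1 with siI2 alone. Depth limits EIF4E1B, EIF4E3, EIF5A2, EIF2S3L, EIF4E and EIF5B, which had fewer than 10 reads in at least 1 library.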
